A study of Homo sapiens with 9 samples.

Results

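The 10 genes described here were 7 pregnancy-specific glycoprotein genes (PSG1, PSG3, PSG4, PSG5, PSG6, PSG8 and PSG9) and 3 alkaline phosphatase genes (ALPP, ALPPL2 and ALPL), out of 20030 genes in the count table. They were chosen by name after results of the comparisons with MHCC97L were known, so their levels in those comparisons are given as a description with no p-value, and counts of calls there support nothing. MHCC97L is an established hepatocellular carcinoma (HCC) cell line, and it was sequenced untreated. MHCC97L-Src was derived from it by exposure to rising amounts of saracatinib, an inhibitor of Src kinases, until it was stably resistant to 4 µmol/L. MHCC97L-Oxa was derived by exposure to oxaliplatin, a platinum drug that cross-links DNA, until it was stably resistant to 2 µmol/L. The treatment label of the libraries is saracatinib for MHCC97L-Src, oxaliplatin for MHCC97L-Oxa and none for MHCC97L. Whether drug was in the medium at harvest is not stated, so effects of drug presence and of the line cannot be told apart. Each line was represented by 3 libraries of poly(A) RNA, 9 in all, with 1 resistant line per drug, and whether a resistant line is a clone or a pool is not stated. The study describes its comparison of MHCC97L with MHCC97L-Src as made in independent experiments, but no label states that the libraries of a line came from separate cultures. The p-values measure the spread between these libraries, part of which may be technical.

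The PSG genes encode secreted, heavily glycosylated proteins of the carcinoembryonic antigen (CEA) branch of the immunoglobulin superfamily, and in pregnancy the syncytiotrophoblast releases them into maternal blood in large amounts. Alkaline phosphatases are membrane-anchored enzymes that remove phosphate groups from many substrates. ALPP encodes the placental enzyme, ALPPL2 the placental-like germ cell enzyme, ALPI the intestinal enzyme and ALPL the tissue-nonspecific enzyme of liver, bone and kidney. ALPP, ALPPL2 and several PSG genes are silent in most adult tissues and are known to be transcribed in some tumours.

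Between 16970486 and 18209213 reads were counted per library, and a floor of 3 counts corresponded to 0.155 to 0.196 CPM, the read count scaled to the library size corrected by TMM factors. Intervals and floors cover counting error only. Replicate 1 of MHCC97L had the most extreme relation to gene GC content. The deviation of its gene levels from their mean over the 9 libraries correlated with GC content at a Spearman rho of -0.785 across 11836 genes. The value was 0.309 and -0.251 in the other MHCC97L libraries and 0.176 to 0.703 in the resistant lines. MHCC97L-Src replicates 1 and 2 were far to the other side, at 0.548 and 0.703, so the relation also differed between lines. Of 13 hepatocyte and HCC markers, ALB, AFP, APOB and TTR were at 0 in all 9 libraries and 7 in total were at or under the floor throughout, so these defining markers of the labelled liver origin were not detected. Others were. HNF4A had 2, 8 and 5 reads in MHCC97L, 7, 4 and 10 in MHCC97L-Src, with 5, 13 and 6 in MHCC97L-Oxa. SERPINA1 had 1, 1 and 1 reads in MHCC97L, 22, 9 and 10 in MHCC97L-Src, with 31, 14 and 14 in MHCC97L-Oxa. In MHCC97L-Oxa vs. MHCC97L it was the 1 of 3 tested markers that edgeR called (log2 fold change 4.14, SE 0.635, adjusted p = 0.0323), where 0.953% of all genes were called. The summed level of that list, 2900 to 7060 CPM, was carried by the keratins KRT8 and KRT18. Of 12 syncytiotrophoblast markers, 10 were at or under the floor in all 9 libraries, including CSH1, CSH2, ERVW-1, ERVFRD-1 and GCM1 at 0, and the list summed to 0.108 to 0.782 CPM.

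The PSG genes lie on the minus strand of chromosome 19 within 547.9 kb (GRCh38, chr19:42721638-43269530), in the order PSG3, PSG8, PSG1, PSG6, PSG7, PSG11, PSG2, PSG5, PSG4 and PSG9. PSG5 (chr19:43166256-43186536) and PSG4 (chr19:43192702-43207299) are next to each other with 6.2 kb between them. ALPP (chr2:232378534-232382889), ALPPL2 (chr2:232406843-232410714) and ALPI (chr2:232456123-232460032) lie on the plus strand of chromosome 2 within 81.5 kb, while ALPL lies alone at chr1:21509372-21578412. The coding sequences of PSG4 and PSG5 were 94.0% identical over 1257 aligned bases. Those of ALPP and ALPPL2 were 97.8% identical, against 89.7% for ALPP and ALPI and 67.9% for ALPP and ALPL. Reads can therefore be assigned to the wrong family member, so family totals are given beside single genes. Of all 125-base windows of a representative transcript, 0.93% of those of PSG4 and 4.94% of those of PSG5 also occurred in another gene. The share was 9.8% for ALPP, all of it shared with ALPPL2, and 0 for ALPI, ALPL and PSG9. An antisense transcript overlaps PSG5 (AC004784.1) and another overlaps ALPP (AC068134.1). The library kit keeps strand, but whether the counting used it is not stated.

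Promoter sequences from RefSeq (GRCh38.p14) were matched for 6 of the 10 genes (PSG3, PSG4, PSG5, ALPP, ALPPL2 and ALPL) and for ALPI. The stretches below are shown because members with very different levels share nearly the same letters just before the transcript starts that RefSeq gives. These starts differ from those of the gene spans given above, which are GENCODE 29 spans. By GENCODE the stretches of PSG3, PSG4 and ALPP lie inside the gene and that of ALPI runs into it, whereas those of PSG5 and ALPPL2 lie before it. In the PSG stretches, 30 bases each, the capitals mark a GC box core (CCGCCC) or a CACCC box (CCACCC). In the phosphatase stretches they mark a TATA-like TTTAAA.
PSG3, chr19:42740519-42740548, minus strand: ggtgtcctgggcctgaccCCGCCCatgaac
PSG4, chr19:43205671-43205700, minus strand: ggtgtcctgggcctgaccCCGCCCacgagc
PSG5, chr19:43186539-43186568, minus strand: ggtgtcctgggcctgaccCCACCCatgagc
ALPP, chr2:232378709-232378738, plus strand: agttctccctgaTTTAAAcccgggcagcct
ALPPL2, chr2:232406802-232406831, plus strand: agttttccctgaTTTAAAcccaggcagcct
ALPI, chr2:232456113-232456142, plus strand: gtcctcccctgaTTTAAAcccaggcagcct

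Counting from 1 at the 5′ end of each stretch, PSG4 and PSG5 differed by 2 substitutions, G21A and C26T. PSG3 and PSG4 differed by T26C and A29G, although PSG3 had no read in any library. ALPP and ALPPL2 differed by C5T and G22A, and ALPP and ALPI by 7 substitutions. Over the whole 250 bases before the RefSeq start, identity was 95% for PSG4 and PSG5, 88.5% for ALPP and ALPPL2 and 71.5% for ALPP and ALPI. By GENCODE these 250 bases lie wholly inside the span of PSG4 and mostly inside that of ALPP, so whether they precede a start depends on the annotation. The motifs are common. Read on both strands, CCGCCC occurred in 42.6%, CCACCC in 31.3% and TTTAAA in 11.3% of 35116 promoters of the same length, and a match is a description of letters and not of a bound site. The 250 bases before the RefSeq starts of PSG5 (chr19:43186537-43186786, minus strand) and ALPI (chr2:232455903-232456152, plus strand) are given whole, of which the last 30 of ALPI lie inside its GENCODE span. They are shown since PSG5, the neighbour of PSG4, had no read in MHCC97L-Src while ALPI, the neighbour of ALPP and ALPPL2, had its most reads there, with the CCACCC of PSG5 and the GGGCGG and TTTAAA of ALPI in capitals.
PSG5, 250 bases upstream: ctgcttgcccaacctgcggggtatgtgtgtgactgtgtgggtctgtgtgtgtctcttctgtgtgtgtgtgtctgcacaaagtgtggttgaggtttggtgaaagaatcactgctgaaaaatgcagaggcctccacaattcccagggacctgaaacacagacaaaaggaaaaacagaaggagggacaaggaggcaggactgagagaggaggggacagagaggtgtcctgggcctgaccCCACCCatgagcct
ALPI, 250 bases upstream: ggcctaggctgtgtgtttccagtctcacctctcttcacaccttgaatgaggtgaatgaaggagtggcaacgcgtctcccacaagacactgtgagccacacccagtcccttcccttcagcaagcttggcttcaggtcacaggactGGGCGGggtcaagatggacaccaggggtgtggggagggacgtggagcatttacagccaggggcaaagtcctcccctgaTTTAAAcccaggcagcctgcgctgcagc

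ALPP had the most reads of the members in MHCC97L and was lower in both resistant lines. The 3 MHCC97L libraries held 415, 617 and 884 ALPP reads, the MHCC97L-Src libraries 58, 60 and 41, and the MHCC97L-Oxa libraries 29, 31 and 25. Every library of either resistant line lay below every MHCC97L library, and the MHCC97L-Oxa libraries lay below those of MHCC97L-Src. In CPM the level was 35.5 ± 13.9 in MHCC97L, 3.20 ± 0.856 in MHCC97L-Src, with 1.56 ± 0.147 in MHCC97L-Oxa (mean ± SD, n = 3 libraries). The log2 fold change against MHCC97L was -3.47 (SE 0.46) in MHCC97L-Src, an 11.1-fold lower mean, and -4.50 (SE 0.43) in MHCC97L-Oxa, a 22.8-fold lower mean. In a bulk sample, fewer cells that express a gene and less RNA per cell cannot be told apart. Both comparisons share the MHCC97L libraries and are not independent of each other.

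PSG4 had the most reads of the pregnancy-specific glycoprotein genes. It had 285, 64 and 123 reads in MHCC97L, 7, 6 and 4 in MHCC97L-Src, with 12, 7 and 11 in MHCC97L-Oxa. The resistant lines did not overlap with MHCC97L but overlapped with each other. The MHCC97L libraries differed widely among themselves, at 14.7, 3.73 and 6.85 CPM. The highest value was that of replicate 1, the library with the most extreme relation to GC content. The mean was 8.42 ± 5.65 CPM in MHCC97L, 0.342 ± 0.106 in MHCC97L-Src, with 0.552 ± 0.152 in MHCC97L-Oxa (SD, n = 3). The log2 fold change was -4.60 (SE 0.69) in MHCC97L-Src and -3.91 (SE 0.63) in MHCC97L-Oxa.

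PSG5 was the only other PSG gene with more than 10 reads in a library. It had 43, 26 and 22 reads in MHCC97L, none in the 3 MHCC97L-Src libraries, and 0, 0 and 1 in MHCC97L-Oxa. The MHCC97L mean was 1.65 ± 0.509 CPM (SD, n = 3), and against the floor of 3 counts per library the level in MHCC97L-Src was at least 9.22-fold lower. With a single read in MHCC97L-Oxa, the ratio of MHCC97L to MHCC97L-Oxa was 90.9 with a 95% counting interval of 15.9 to 3630. PSG5 reads made up 15.7% (exact binomial 95% interval 12.8 to 18.9%) and PSG4 reads 81.5% (78.1 to 84.6%) of the 579 PSG reads of MHCC97L.

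**Figure D1:**
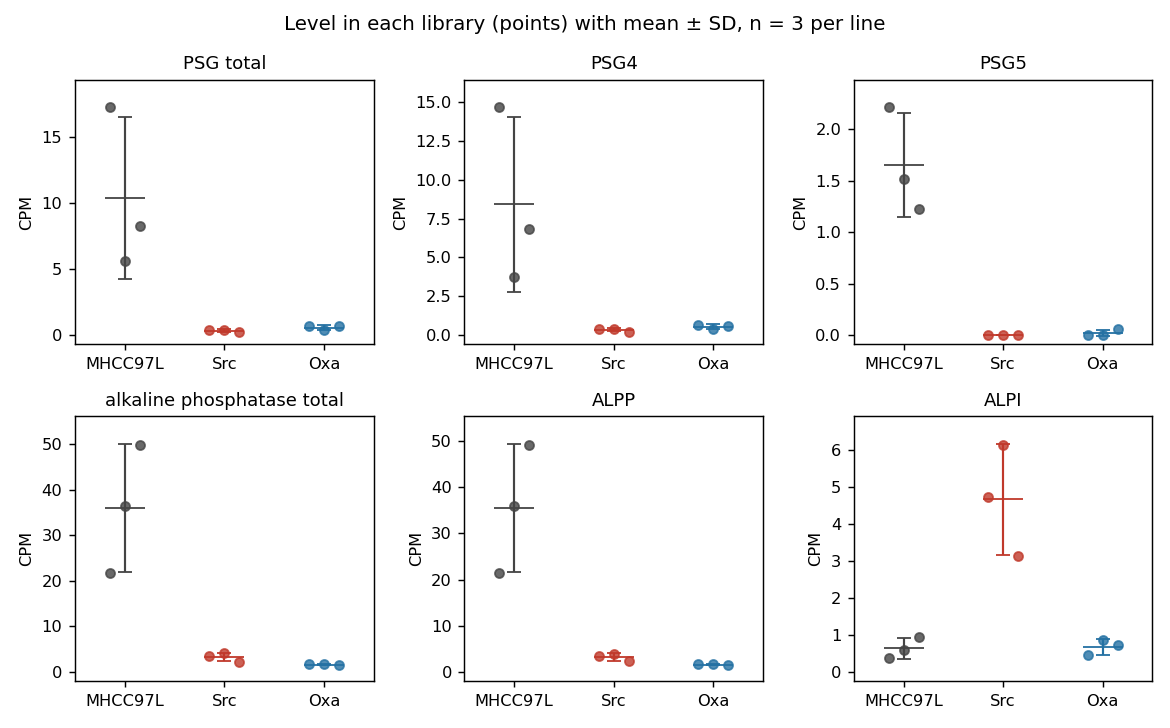
Level in CPM (vertical axes, each from 0) in each of the 3 libraries of MHCC97L, MHCC97L-Src (Src) and MHCC97L-Oxa (Oxa), as points ordered by replicate number, with the mean as a horizontal bar and the SD as the error bar. The PSG total, PSG4, PSG5, the alkaline phosphatase total and ALPP were highest in all 3 MHCC97L libraries, whereas ALPI was highest in all 3 MHCC97L-Src libraries.

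The remaining PSG genes were at the edge of detection. PSG1 had 7, 2 and 2 reads in MHCC97L and none in either resistant line, where the mean was at least 1.1-fold lower in MHCC97L-Src and at least 1.19-fold lower in MHCC97L-Oxa. PSG9 had 4 reads in replicate 2 of MHCC97L and none elsewhere, and PSG6 had 1 read in replicate 3 of MHCC97L and none elsewhere. PSG3 and PSG8 had no read in any library. For PSG8 an FPKM (fragments scaled to transcript length and library size) of 0.0136 was nevertheless listed in replicate 1 of MHCC97L. Of the PSG genes outside the chosen list, PSG2 and PSG7 had no read and PSG11 had 1, in MHCC97L.

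The PSG total, the sum of the 7 genes, was 335, 96 and 148 reads in MHCC97L, 7, 6 and 4 in MHCC97L-Src, with 12, 7 and 12 in MHCC97L-Oxa. This was 10.4 ± 6.12, 0.342 ± 0.106 and 0.571 ± 0.166 CPM (SD, n = 3). The total was 30.4-fold lower in MHCC97L-Src (log2 ratio of means -4.92) and 18.2-fold lower in MHCC97L-Oxa (-4.18). Without replicate 1 of MHCC97L these log2 ratios were -4.34 and -3.60, so the lower PSG level did not rest on that library. Without PSG4 the log2 ratio of MHCC97L-Src to MHCC97L was -3.44, a value set by the floor because no other PSG read was left in MHCC97L-Src.

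The other two phosphatase members were scarce. ALPPL2 had 2, 2 and 3 reads in MHCC97L, 1, 0 and 0 in MHCC97L-Src and none in MHCC97L-Oxa, so it was at or under the floor in every library and no fold is given. With 11.78% of its windows shared with ALPP, its few reads cannot be told apart from ALPP reads placed on the wrong gene. ALPL had 3, 4 and 9 reads in MHCC97L, 0, 2 and 0 in MHCC97L-Src and none in MHCC97L-Oxa. The ratio of MHCC97L to MHCC97L-Src was 7.41 with a counting interval of 1.74 to 66.4, and the level in MHCC97L-Oxa was at least 1.79-fold lower than in MHCC97L. ALPL shared no window with another gene.

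ALPP therefore made up nearly the whole alkaline phosphatase total, with 98.8% (exact binomial 95% interval 98.2 to 99.2%) of its 1939 reads in MHCC97L. The total was 420, 623 and 896 reads in MHCC97L, 59, 62 and 41 in MHCC97L-Src, with 29, 31 and 25 in MHCC97L-Oxa. It was 11-fold lower in MHCC97L-Src (log2 ratio of means -3.46) and 23-fold lower in MHCC97L-Oxa (-4.53). Without replicate 1 of MHCC97L the log2 ratios were -3.72 and -4.79. Replicate 1 held the lowest phosphatase total and the highest PSG total of the 3 MHCC97L libraries.

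Compared per length, as deposited FPKM, the order of the members in MHCC97L was ALPP at 8.92 ± 3.17, PSG4 at 1.40 ± 0.854, PSG5 at 0.345 ± 0.102, ALPL at 0.0581 ± 0.0351, ALPPL2 at 0.0459 ± 0.0103 and PSG1 at 0.0375 ± 0.0255 (mean ± SD, n = 3). ALPP, PSG4 and PSG5 did not overlap between libraries, whereas ALPL, ALPPL2 and PSG1 overlapped within their spread. In MHCC97L-Src the order was ALPP at 0.733 ± 0.121 and PSG4 at 0.0614 ± 0.0115, with the other members at or near 0. In MHCC97L-Oxa it was ALPP at 0.357 ± 0.0299 and PSG4 at 0.108 ± 0.0199. ALPP stayed above PSG4 in every library of the 3 lines.

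Only 3 of the 10 members, ALPP, PSG4 and PSG5, passed the filter on low counts in the comparisons with MHCC97L. PSG4 and PSG5 passed it through their MHCC97L libraries, so they had to be lower in the resistant lines if they differed at all. ALPP had enough reads in the resistant lines to pass it there too. The 3 were among the genes that edgeR called lower in both comparisons, which is a description of how they were chosen. Of all genes tested, 2.13% were called and 0.698% called lower in MHCC97L-Src, and 0.953% were called and 0.182% called lower in MHCC97L-Oxa. By an unadjusted p below 0.05 together with a change of more than 1 log2 unit, 24.6% and 16.2% of all genes were called, and 12.2% and 9.93% had all resistant libraries below all MHCC97L libraries. Nothing is read from the 3 members against these shares, since the same contrast chose them. The calls depended on which libraries entered the fit. Leaving out MHCC97L-Src replicate 3 or MHCC97L replicate 3 left 0 members called in MHCC97L-Src, and leaving out MHCC97L-Src replicate 2 left 2. With MHCC97L-Src replicate 3 or MHCC97L replicate 3 left out, 27 and 22 genes in all were called. In MHCC97L-Oxa, 0 members were called without MHCC97L replicate 3 or without any one of the MHCC97L-Oxa libraries, and 2 genes in all were called in each of these fits. The log2 fold changes with single libraries left out ran from -3.70 to -3.17 for ALPP and from -4.91 to -3.89 for PSG4 in MHCC97L-Src, and from -4.67 to -4.19 and from -4.19 to -3.15 in MHCC97L-Oxa.

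The comparison of the resistant lines with each other did not involve MHCC97L, although earlier results of these data were known when it was made. ALPP was the only member that passed the filter there. It was higher in all 3 MHCC97L-Src libraries than in any MHCC97L-Oxa library, with a log2 fold change of 1.02 (SE 0.31), but its adjusted p in edgeR's quasi-likelihood test was 0.0963 (unadjusted 0.00734), so 0 of 1 members tested were called. In this comparison 4.64% of all 11994 genes tested were called, 4.01% by the rule of unadjusted p and 1 log2 unit, which ALPP met, and 13.9% had all MHCC97L-Src libraries above all MHCC97L-Oxa libraries. The adjusted p ranged from 0.0275 to 0.509 over the alternative settings, and it was 0.0275 without MHCC97L-Src replicate 3. The PSG total was 1.69 times higher in MHCC97L-Oxa than in MHCC97L-Src by summed reads, with a 95% counting interval of 0.907 to 3.26 that included 1, and the libraries overlapped.

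ALPI, the intestinal enzyme gene and the nearest relative of ALPP that is not a member, went the other way in MHCC97L-Src. It had 7, 10 and 17 reads in MHCC97L, 80, 94 and 57 in MHCC97L-Src, with 8, 16 and 13 in MHCC97L-Oxa. All MHCC97L-Src libraries lay above all others, and the other two lines overlapped. The log2 fold change was 2.88 (SE 0.55, edgeR adjusted p = 0.037) in MHCC97L-Src vs. MHCC97L and 2.76 (SE 0.38, adjusted p = 0.00294) in MHCC97L-Src vs. MHCC97L-Oxa. In MHCC97L-Oxa vs. MHCC97L it was 0.11 (SE 0.51, adjusted p = 0.902). The call against MHCC97L was lost without any one of the MHCC97L-Src libraries and without MHCC97L replicate 3, with adjusted p-values of 0.0942 to 0.124, and on log2(FPKM + 1), with 0.0524, whereas the call against MHCC97L-Oxa was kept in all 15 alternative settings. Per length, ALPI at 1.01, 1.25 and 0.652 FPKM was above ALPP at 0.803, 0.803 and 0.594 FPKM in each MHCC97L-Src library, while ALPP was far above ALPI in MHCC97L (8.92 against 0.134 FPKM in the mean). When ALPI was added to the alkaline phosphatase total, the log2 ratio of MHCC97L-Src to MHCC97L was -2.21 instead of -3.46.

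Genes beside ALPI were also higher in MHCC97L-Src. They were looked up after the values of the cluster had been seen. Within 500 kb of the chromosome 2 cluster, edgeR called 2 genes higher and 1 lower of 9 tested in MHCC97L-Src vs. MHCC97L, and 0 of 7 in MHCC97L-Oxa vs. MHCC97L (2 by the looser rule of an unadjusted p below 0.05 and 1 log2 unit). PRSS56, a serine protease gene 60.4 kb beyond ALPI (chr2:232520463-232525716), had 1, 1 and 2 reads in MHCC97L, 28, 17 and 15 in MHCC97L-Src, with 0, 1 and 2 in MHCC97L-Oxa. CHRND, the delta subunit of the muscle acetylcholine receptor (chr2:232525993-232536667), had no read in MHCC97L, 10, 11 and 10 in MHCC97L-Src, with 2, 0 and 0 in MHCC97L-Oxa. The edgeR adjusted p in MHCC97L-Src vs. MHCC97L was 0.0195 for PRSS56 and 0.024 for CHRND, whose level was at least 3.74-fold higher than the floor in MHCC97L. Both calls were lost without MHCC97L-Src replicate 2 or 3 or MHCC97L replicate 3, and that of PRSS56 also without MHCC97L-Src replicate 1 (adjusted p of 0.0619 to 0.0909). CHRND was also not called on log2(FPKM + 1) and log2(FPKM + 0.1), with adjusted p-values of 0.299 and 0.106, nor was PRSS56 on log2(FPKM + 1), with 0.136. ECEL1, which lies between ALPI and PRSS56, did not pass the filter, as it had no read in MHCC97L, 15, 8 and 5 in MHCC97L-Src, with 8, 4 and 1 in MHCC97L-Oxa. Beyond these genes, EFHD1 was called lower in MHCC97L-Src (34, 47 and 37 reads against 2, 4 and 8, adjusted p = 0.0381). Around the PSG cluster, edgeR called 0 of 23 tested genes in MHCC97L-Src vs. MHCC97L and 0 of 24 in MHCC97L-Oxa vs. MHCC97L, and 3 in each by the looser rule. Of all genes, 2.13% and 0.953% were called by edgeR and 24.6% and 16.2% by the looser rule.

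**Figure D2:**
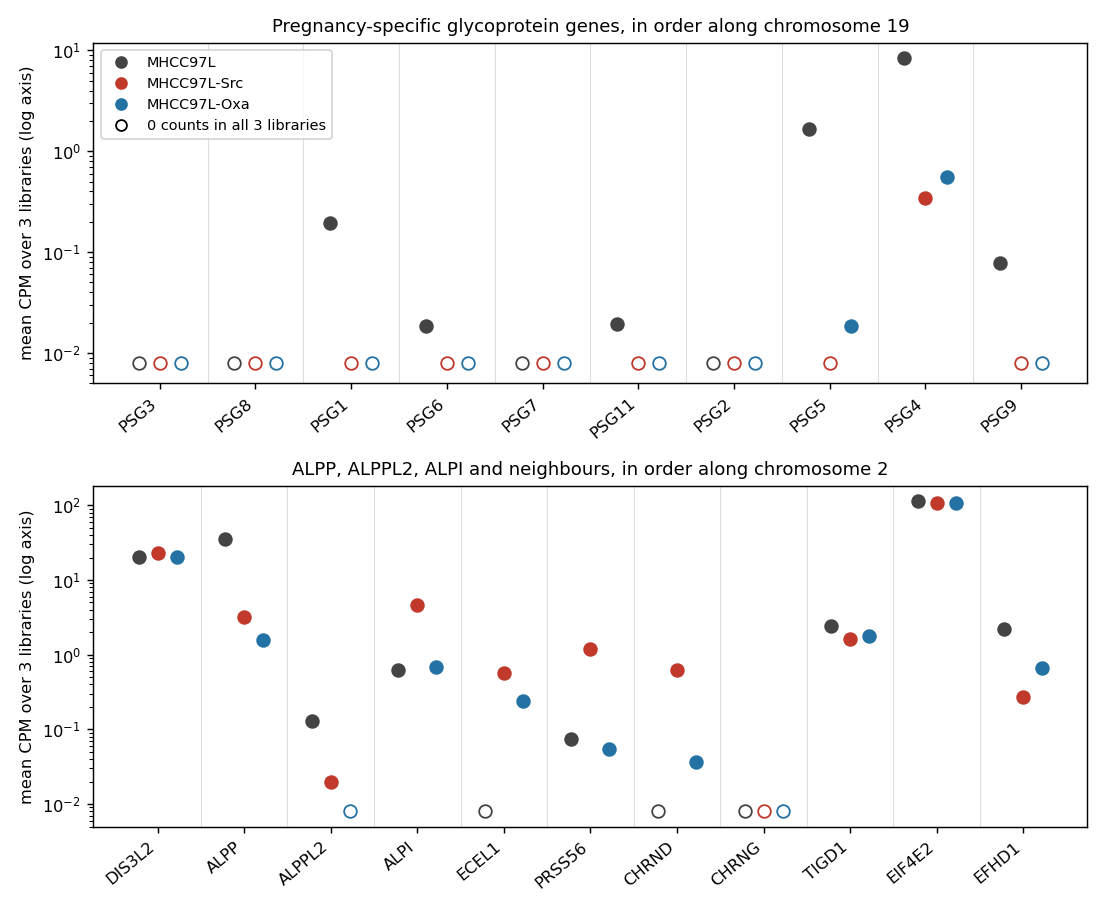
Mean CPM over 3 libraries per line (vertical axes, logarithmic) for the PSG genes in their order along chromosome 19 and for ALPP, ALPPL2, ALPI and genes within 150 kb of them in order along chromosome 2, with open circles at the bottom for genes without a read in a line. PSG4 and PSG5 carried the PSG signal, and the run from ALPI to CHRND was highest in MHCC97L-Src.

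Of the other CEA and alkaline phosphatase family genes, 16 were in the table and 11 of them had no read in any library. The 3 that were tested in each comparison had a median log2 fold change of 2.88 in MHCC97L-Src vs. MHCC97L (all genes -0.16), with ALPI the 1 called. In MHCC97L-Oxa vs. MHCC97L the median was 0.11 (all genes -0.19) and 0 were called by edgeR, and 1 by the looser rule. CEACAM1, a cell adhesion gene of the CEA family, had 8, 0 and 6 reads in MHCC97L, 32, 30 and 56 in MHCC97L-Src, with 44, 39 and 25 in MHCC97L-Oxa. Its libraries did not overlap with MHCC97L in either line, but it did not pass the test (edgeR adjusted p of 0.0843 and 0.142 in MHCC97L-Src and MHCC97L-Oxa).

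Genes of trophoblast outside the PSG and phosphatase families were called in both directions in MHCC97L-Src. Of 59 trophoblast genes in the table, 19 were tested in MHCC97L-Src vs. MHCC97L, where 3 were called higher and 2 lower by edgeR, with a median log2 fold change of -0.04 against -0.16 for all genes. By the looser rule 7 were called. Among all genes tested there, 2.13% were called by edgeR and 24.6% by the looser rule. GDF15, a stress-induced cytokine also made by placenta, rose from 214, 255 and 250 reads in MHCC97L to 1390, 1699 and 1580 in MHCC97L-Src (log2 fold change 2.81, SE 0.28, adjusted p = 0.00597). PGF, the placental growth factor gene, rose from 22, 29 and 19 reads to 168, 191 and 156 (2.99, SE 0.46, adjusted p = 0.0185). MFSD2A, a lipid transporter that serves as the syncytin-2 receptor, rose by 2.58 log2 units (SE 0.39, adjusted p = 0.0184). PLAC8 fell by 1.95 log2 units (SE 0.29, adjusted p = 0.0175), and KRT7, an epithelial keratin of trophoblast, was the other gene called lower. The calls of PGF, MFSD2A and PLAC8 were lost when any MHCC97L-Src library or MHCC97L replicate 3 was left out (adjusted p of 0.068 to 0.103), and that of PLAC8 also under a correction for GC content and length (log2 fold change -1.33, adjusted p = 0.171), while that of GDF15 was kept in all 15 settings.

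In MHCC97L-Oxa vs. MHCC97L, 2 of 20 tested trophoblast genes were called higher by edgeR and 0 lower, with a median log2 fold change of 0.13 (all genes -0.19). By the looser rule 7 were called. Among all genes tested there, 0.953% were called by edgeR and 16.2% by the looser rule. The 2 called by edgeR were MFSD2A, with a log2 fold change of 2.34 (SE 0.36, adjusted p = 0.0323), and GDF15, with 1.85 (SE 0.26, adjusted p = 0.0271). Both calls were lost without any MHCC97L-Oxa library or MHCC97L replicate 3 (adjusted p of 0.127 to 0.236). Between the resistant lines, 2 of 20 were called higher in MHCC97L-Src (PGF and GDF15) and 4 lower (ADAM12, KRT7, PLAC8 and TFPI2), and 1 was called by the looser rule. Among all genes tested there, 4.64% were called by edgeR and 4.01% by the looser rule.

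Of 15 tested factors known to act on PSG promoters, edgeR called 0 in MHCC97L-Src vs. MHCC97L and 0 in MHCC97L-Oxa vs. MHCC97L. With 2.13% and 0.953% of all genes called, 0 of 15 is near those shares and says nothing about these factors. By the looser rule 3 and 1 were called, against 24.6% and 16.2% of all genes. In MHCC97L-Src these were SP3 (log2 fold change -2.16), TEAD1 (-1.97) and GABPA (-2.22), and in MHCC97L-Oxa SP3 (-1.77). Each was highest in replicate 1 of MHCC97L, the library with the most extreme relation to GC content. In CPM the MHCC97L libraries held 54.0, 7.99 and 25.1 of SP3, 135, 20.05 and 61.0 of TEAD1, and 21.2, 1.46 and 14.4 of GABPA. The ranges in MHCC97L-Src were 5.80 to 7.30, 17.8 to 19.1 and 2.25 to 3.46, so GABPA overlapped. SP3 in MHCC97L-Oxa, at 6.48 to 11.2, also overlapped with MHCC97L. The part of replicate 1 was not tested. The 15 factors had a median log2 fold change of -0.51 (all genes -0.16) and -0.04 (all genes -0.19). The 2 with the highest mean CPM over the 9 libraries were GATA2, a zinc finger factor of trophoblast, at 226 ± 57.2 CPM in MHCC97L, 325 ± 34.2 in MHCC97L-Src, with 270 ± 7.84 in MHCC97L-Oxa (SD, n = 3), and the retinoic acid receptor RARG, at 124 ± 38.4, 133 ± 13.2 and 138 ± 3.05 CPM. The promoter factors KLF4 and RARA were lower in MHCC97L-Src than in MHCC97L-Oxa, by a log2 fold change of -0.92 (SE 0.19, edgeR adjusted p = 0.0213) and -0.53 (SE 0.12, adjusted p = 0.0403). KLF4 was not called without MHCC97L-Src replicate 1, MHCC97L-Oxa replicate 1 or MHCC97L-Oxa replicate 2 (adjusted p of 0.0656 to 0.127), nor with all 9 libraries in one fit (0.187), on log2(FPKM + 1) (0.0626) or on log2(FPKM + 0.1) (0.0643), and RARA was called in just 1 of the 6 fits that left out a library and was not called with DESeq2 size factors (adjusted p = 0.0679) or all 9 libraries in one fit (0.658).

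PSG proteins are known to bind integrins, tetraspanins and heparan sulphate proteoglycans and to activate latent TGF-beta. Of the genes for these binding partners, edgeR called 1 of 16 tested in MHCC97L-Src vs. MHCC97L (2.13% of all genes) and the looser rule 4 (24.6% of all genes). The median log2 fold change was 0.41 (all genes -0.16). The gene called by edgeR was TGFB3, a ligand, with 314, 365 and 302 reads in MHCC97L and 860, 680 and 879 in MHCC97L-Src (log2 fold change 1.40, SE 0.28, adjusted p = 0.0453). The call was lost without any MHCC97L-Src library or MHCC97L replicate 3 (adjusted p of 0.15 to 0.207) and on log2(FPKM + 1) (0.0616). In MHCC97L-Oxa vs. MHCC97L 0 of 15 were called by edgeR (0.953% of all genes) and 3 by the looser rule (16.2% of all genes). The median was 0.36 (all genes -0.19). The 2 with the highest mean CPM over the 9 libraries were the fibronectin receptor subunit ITGA5, at 589 ± 153 CPM in MHCC97L and 1313 ± 20.1 in MHCC97L-Oxa (adjusted p = 0.0733), and the tetraspanin CD81, at 289 ± 89.1 and 371 ± 13.8 CPM (adjusted p = 0.383; SD, n = 3).

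Tissue-nonspecific alkaline phosphatase acts among genes of phosphate handling and mineralization. Of these, edgeR called 0 of 11 tested in each comparison with MHCC97L, near the 2.13% and 0.953% of all genes called. By the looser rule 3 were called in each, against 24.6% and 16.2% of all genes. In MHCC97L-Src these were ENPP1 (log2 fold change -2.54), XPR1 (-1.88) and MGP (2.03), and in MHCC97L-Oxa ENPP1 (-2.28), MGP (2.37) and NT5E (1.18). ENPP1 and XPR1 were also highest in replicate 1 of MHCC97L, whose libraries held 11.9, 2.04 and 3.56 CPM of ENPP1 and 64.0, 6.82 and 18.15 CPM of XPR1. ENPP1 was lower than these in every MHCC97L-Src (0.782 to 1.15 CPM) and MHCC97L-Oxa library (1.17 to 1.22 CPM). XPR1 in MHCC97L-Src (5.87 to 9.64 CPM) overlapped with MHCC97L. The 11 genes had medians of -0.45 (all genes -0.16) in MHCC97L-Src and -0.50 (all genes -0.19) in MHCC97L-Oxa. The 2 with the highest mean CPM over the 9 libraries were PDXK, the pyridoxal kinase gene, at 417 ± 113 CPM in MHCC97L, 368 ± 41.3 in MHCC97L-Src, with 378 ± 4.69 in MHCC97L-Oxa, and the pyrophosphate transporter gene ANKH, at 246 ± 44.4, 249 ± 13.8 and 286 ± 4.38 CPM (SD, n = 3). Of 11 tested oncofetal and germ cell genes, with which ALPP and ALPPL2 are often grouped, 0 were called in MHCC97L-Src vs. MHCC97L by edgeR (1 by the looser rule, median 0.08). The shares of all genes there were 2.13% by edgeR and 24.6% by the looser rule. In MHCC97L-Oxa vs. MHCC97L edgeR called 1 of 11 (0.953% of all genes) and the looser rule 3 (16.2% of all genes), with a median of -0.12. The gene called by edgeR was TPBG, the trophoblast glycoprotein gene, which rose by 1.34 on the log2 scale (SE 0.19, adjusted p = 0.0273). Its call was lost without any MHCC97L-Oxa library or MHCC97L replicate 3 (adjusted p of 0.139 to 0.231) and under the GC and length correction (0.0875). The gene of this list with the highest mean CPM over the 9 libraries, CD24, was at 720 ± 237 CPM in MHCC97L, 395 ± 36.4 in MHCC97L-Src, with 372 ± 28.7 in MHCC97L-Oxa.

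**Figure D3:**
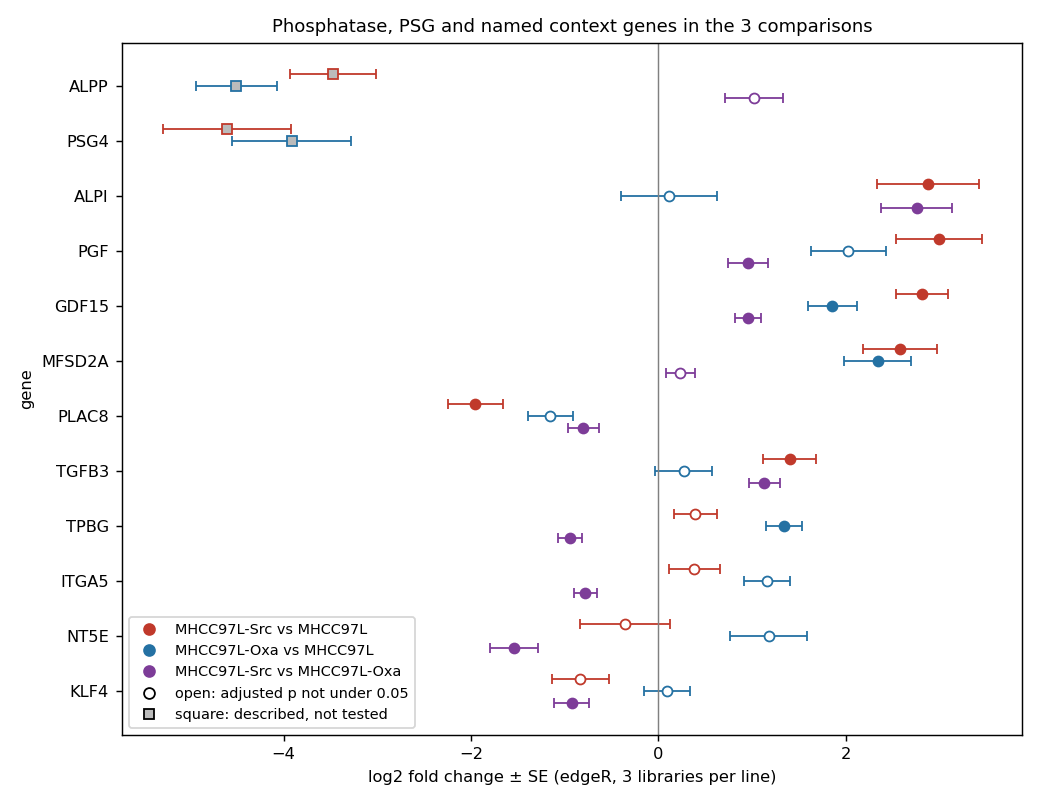
Log2 fold change (horizontal axis) with its SE as the error bar for ALPP, PSG4, ALPI and named genes of the context lists in the 3 comparisons, from edgeR fits on 3 libraries per line. Filled circles had an adjusted p under 0.05, open circles did not, and squares mark members in the comparisons that chose them. ALPP and PSG4 lay left of 0 against MHCC97L in both lines, at -3.47 to -4.60, and ALPI lay right of 0 in both comparisons of MHCC97L-Src.

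The genes whose pattern over the 9 libraries was nearest to each family total were sought among 11926 genes, by the root mean square difference of log2 CPM centred on its mean. Nearest to the PSG total was PDZK1, a scaffold protein gene of the brush border, with a difference of 0.371, and it had 51, 15 and 26 reads in MHCC97L, 1, 0 and 0 in MHCC97L-Src, with 1, 0 and 2 in MHCC97L-Oxa. The order of the 3 MHCC97L libraries was the same for PDZK1 and the PSG total. The next 4 were SLC12A3 (0.748), CYP1B1 (0.759), HKDC1 (0.762) and GDA (0.772), of which CYP1B1, a cytochrome P450, HKDC1, a hexokinase domain gene, and GDA, guanine deaminase, also had their highest level in replicate 1 of MHCC97L. Nearest to the alkaline phosphatase total was ANKRD2, an ankyrin repeat gene, with a difference of 0.62 and 31, 53 and 75 reads in MHCC97L, 3, 2 and 4 in MHCC97L-Src, with 3, 6 and 0 in MHCC97L-Oxa. It was followed by LRRC15 (0.661), FAM46B (0.696), SLC12A3 (0.74) and HRASLS2 (0.781). FAM46B had 452, 643 and 862 reads in MHCC97L, 132, 141 and 109 in MHCC97L-Src, with 79, 90 and 106 in MHCC97L-Oxa. These likenesses describe 9 libraries of 3 lines and were not tested.

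**Figure D4:**
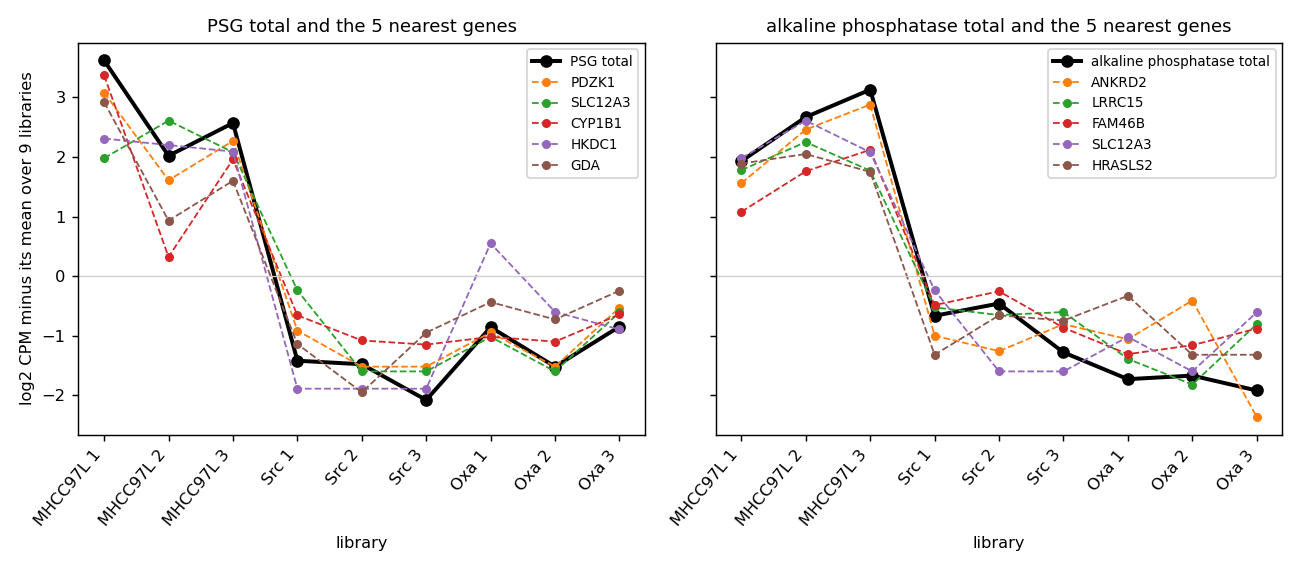
Log2 CPM minus its mean over the 9 libraries (vertical axis) in each library (horizontal axis, named by line and replicate) for each family total, as a thick black line, and for the 5 genes nearest to it, as dashed lines. PDZK1 followed the PSG total with a root mean square difference of 0.371, and ANKRD2 followed the alkaline phosphatase total with 0.62. Lines join libraries only to guide the eye.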

How the data were processed

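RNA of 3 lines was sequenced in 9 stranded poly(A) libraries. The authors deposited raw read counts per gene and FPKM values, which they normalized to transcript length and library size. The submitters' processing notes name Trimmomatic 0.36, HISAT2 2.2.1.0 and the build GRCh38.p12, while the counting program and its use of strand are not given in the sources used here. Comparisons used edgeR's quasi-likelihood test on the deposited counts of the 6 libraries concerned, with filterByExpr (minimum count 10), TMM factors and Benjamini-Hochberg adjustment over all genes tested. SE was taken as the absolute log2 change over the root of the F statistic. CPM used TMM factors over 9 libraries, and log2 CPM a prior count of 2. The members and gene lists were chosen with earlier results of these data known. Named genes were all members and, per list and comparison, up to 4 called genes by size of change or else the 2 most abundant, plus the 5 genes nearest to each family total. Genes beside the clusters, CEACAM1 and KRT7 in MHCC97L-Src, PLAC8 and TFPI2 between the resistant lines and FAM46B's level were named after their values were seen. The same holds for the promoter factors and phosphate genes named by the looser rule, and for SERPINA1, HNF4A, COL1A1 and DCN. Positions and transcripts came from GENCODE 29 (GRCh38), whose coordinates the build in the notes shares. Of the alternatives, the GC content and length correction, added genes in the totals and the list counts were added after the data were seen. The fits were tested on simulated data. The software was edgeR 4.0.16, DESeq2 1.42.0 and limma 3.58.1 in R 4.3.3, and Biopython 1.88, matplotlib 3.10.9 and pandas 2.3.3 in Python 3.11.15.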

Additional observations from a re-analysis of the deposited data

Results flagged for a closer look

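ALPI differed between the resistant lines, at 2.76 log2 units higher in MHCC97L-Src by edgeR's quasi-likelihood test (adjusted p = 0.00294), and it was higher in 3 of 3 MHCC97L-Src libraries than in any MHCC97L-Oxa library.

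Of the context genes, GDF15 (0.95), PGF (0.96) and TGFB3 (1.13) were higher in MHCC97L-Src than in MHCC97L-Oxa by the same test, as log2 fold changes. Lower in MHCC97L-Src were ADAM12 (-1.42), KRT7 (-0.99), PLAC8 (-0.80) and TPBG (-0.95), the integrin subunits ITGA5 (-0.78) and ITGB1 (-0.83), the promoter factors KLF4 (-0.92) and RARA (-0.53), and NT5E (-1.54), which encodes the ecto-enzyme CD73 that dephosphorylates AMP. Each had an adjusted p under 0.05 in the main fit. The calls of GDF15, PGF, TGFB3, ADAM12, KRT7, ITGA5, ITGB1, KLF4, RARA and NT5E were lost with all 9 libraries in one fit. That of PLAC8 was lost too, since that fit called no trophoblast gene in this comparison. Leaving PLAC8 aside, the adjusted p-values of these genes in that fit ran from 0.0752 (TGFB3) to 0.999 (ITGB1). The call of PGF was also lost without MHCC97L-Src replicate 1 or any one MHCC97L-Oxa library (0.132 to 0.15). ADAM12 was not called without MHCC97L-Oxa replicate 2 (0.101), nor ITGB1 without MHCC97L-Oxa replicate 2 (0.0894) or 3 (0.0912). ITGA5 was not called without MHCC97L-Src replicate 1 (0.0559), nor NT5E without MHCC97L-Src replicate 1 (0.0547) or MHCC97L-Oxa replicate 2 (0.0638). The losses of KLF4 and RARA with single libraries left out are given above. TPBG was called in all 15 alternative settings. Among the members, ALPP did not reach that threshold in this comparison.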

How the results depend on the processing

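The members called against MHCC97L stayed at 3 in each line under DESeq2's test, DESeq2 size factors, total counts, no filter, all 9 libraries in one fit, log2(FPKM + 0.1) and the GC and length correction. On log2(FPKM + 1), which compresses low levels, 1 was called in each line and 1 (ALPP) between the resistant lines. Leaving out single libraries gave 0 to 3 in each line and 0 to 1 between the resistant lines. Without PSG4 the PSG total was -3.44 in MHCC97L-Src vs. MHCC97L and turned to 0.116 between the resistant lines, where both were at the floor. Without ALPP the phosphatase total was -1.25, -1.36 and 0.116 in the 3 comparisons, values set by the floor because both resistant lines were below it. With ALPI the phosphatase total was -2.21 in MHCC97L-Src vs. MHCC97L and 1.82 between the resistant lines.

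The counts of context genes called moved most. In MHCC97L-Src vs. MHCC97L, 2 CEA and phosphatase genes were called under DESeq2's test, no filter, the replicate block, all 9 libraries and the GC and length correction, and 0 on log2(FPKM + 1). All 9 libraries in one fit called 8 trophoblast, 2 oncofetal, 3 promoter factor, 4 binding partner and 2 phosphate genes, and the GC and length correction 3, 5 and 2 of the last 3 lists. DESeq2's test called 1 oncofetal, 3 promoter factor, 3 binding partner and 2 phosphate genes. In MHCC97L-Oxa vs. MHCC97L, 5 trophoblast genes were called under DESeq2's test, all 9 libraries and the GC and length correction, and 4 with total counts, while DESeq2's test called 2 oncofetal, 2 binding partner and 3 phosphate genes and the GC and length correction 2, 4 and 3. Between the resistant lines all 9 libraries in one fit called 0 genes of the trophoblast, promoter factor, binding partner and phosphate lists, the GC and length correction 4 promoter factors and 7 binding partners, and DESeq2's test 5 binding partners. Leaving out single libraries gave, for MHCC97L-Src vs. MHCC97L, 0 to 2 CEA and phosphatase, 1 to 6 trophoblast, 0 to 1 oncofetal, 0 to 3 promoter factor, 0 to 3 binding partner and 0 to 2 phosphate genes. For MHCC97L-Oxa vs. MHCC97L the ranges were 0 to 1, 0 to 7, 0 to 3, 0 to 3, 0 to 9 and 0 to 4, and between the resistant lines 1, 2 to 8, 1 to 2, 0 to 3, 2 to 7 and 0 to 1. The cause of these moves was not tested.

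Of 720 values of single genes, 571 kept direction and side of the threshold, 111 lost a call, 24 gained one and 14 changed direction. Near 0 and not called, RARG turned to -0.2469 in MHCC97L-Src and -0.04936 in MHCC97L-Oxa, and ALPI to -0.1605 in MHCC97L-Oxa, under the GC and length correction, and ANKH in MHCC97L-Src to -0.03997 with total counts, -0.06635 on log2(FPKM + 1) and -0.06872 on log2(FPKM + 0.1). With single libraries left out, RARG and ANKH in MHCC97L-Src ran from -0.1018 to 0.2886 and from -0.06012 to 0.2179, ALPI and PDXK in MHCC97L-Oxa from -0.1001 to 0.5256 and from -0.2538 to 0.04363, and CEACAM1 between the resistant lines from -0.03946 to 0.3901.

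The correlations of same-numbered deviations ran from -0.65 to 0.444. With 3 libraries per line they cannot show whether replicate numbers pair the libraries. With the replicate block, members called stayed at 3, 3 and 0. The block ended the calls of MFSD2A in MHCC97L-Oxa vs. MHCC97L (adjusted p = 0.0609) and of PGF (0.0732) and RARA (0.0983) between the resistant lines. It added that of CEACAM1 in MHCC97L-Src vs. MHCC97L (0.000735). Over all genes, calls in the 3 comparisons went from 256, 115 and 556 to 988, 92 and 406 with the block, to 2114, 895 and 839 under DESeq2's test, to 1956, 495 and 86 with all 9 libraries in one fit and to 1278, 1560 and 1154 under the GC and length correction. Without the filter they were 702, 163 and 610. With single libraries left out they ran from 22 (without MHCC97L replicate 3) to 3419 (without MHCC97L replicate 2), from 2 (without MHCC97L replicate 3 or any MHCC97L-Oxa library) to 2705 (without MHCC97L replicate 2) and from 167 (without MHCC97L-Oxa replicate 2) to 1617 (without MHCC97L-Src replicate 3), so the shares of all genes called given beside the members move with them.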

Other observations

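Defining markers of leukocytes and endothelium were at 0 or low in all lines, but CD14 and CDH5 changed. CD14, one of 5 leukocyte markers, had 16, 18 and 20 reads in MHCC97L, 97, 104 and 100 in MHCC97L-Src, with 91, 79 and 87 in MHCC97L-Oxa. PTPRC, CD3E and LYZ of that list were at 0 in all 9 libraries. CDH5, one of 4 endothelial markers, had 17, 28 and 22 reads in MHCC97L, 188, 196 and 236 in MHCC97L-Src, with 8, 12 and 7 in MHCC97L-Oxa. KDR of that list was at 0 throughout. CD14 was called higher by edgeR in both lines (adjusted p of 0.0236 and 0.0428 in MHCC97L-Src and MHCC97L-Oxa) and CDH5 in MHCC97L-Src (adjusted p = 0.0139). The summed fibroblast markers were 102 to 172 CPM in MHCC97L, 77.3 to 86.5 in MHCC97L-Src and 134 to 146 in MHCC97L-Oxa. Nearly all of this was COL1A1 (mean 61.5, 65.25 and 76.4 CPM) and DCN (67.0, 17.5 and 65.1 CPM). Of the 5 markers, 2, COL1A2 and PDGFRA, were at or under the floor in all 9 libraries. By edgeR DCN was called lower in MHCC97L-Src than in MHCC97L-Oxa (log2 fold change -1.89, SE 0.258, adjusted p = 0.00294), but not against MHCC97L (adjusted p = 0.0853). The part of other cells in the levels of the PSG genes and ALPP was not tested.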
